A study of Mus musculus with 4 samples.

Results

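The genes described here encode the protein folding machinery of the endoplasmic reticulum (ER) and the unfolded protein response, the signalling system that adjusts that machinery to the load of secreted protein. They were given as a list of 44 names, of which Vimp is an older name of Selenos, so that the list held 43 genes among the 54532 gene IDs of the files. All 43 were measured, meaning an FPKM (fragments of a gene per kilobase of exon, scaled to sequencing depth) of 1 or more in at least 1 stage, as were 14841 genes in all. RNA sequencing was done on total RNA of fetal pancreas from wild-type (WT) C57BL/6 mouse embryos at 4 embryonic stages from E11.5 through E13.5 and E15.5 to E18.5, with 1 sample per stage and no treatment or mutant allele in any of them. By the series' design text, the material was the epithelium of the pancreas. How many embryos went into a sample was not given in the sources used here. Each deposited value is an average per stage, and the values themselves showed that 2 libraries of whole reads had been averaged, which no label states. Where that average could be taken apart, the spread of both libraries is given as SD with n = 2. Nothing says that these libraries came from separate embryos, so the tests on them measure the spread between libraries, which may be technical.

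Secreted and membrane proteins enter the ER unfolded. Chaperones such as the Hsp70 protein BiP (Hspa5) hold them, the calnexin and calreticulin cycle follows their sugars, protein disulfide isomerases and the Ero1 oxidases form their disulfide bonds, and prolyl isomerases turn their proline bonds. Proteins that fail to fold are pulled back to the cytosol and degraded, a route called ER-associated degradation. Ire1 (Ern1), Perk (Eif2ak3) and Atf6 sense unfolded protein in the ER. Ire1 splices the mRNA of the transcription factor Xbp1, Atf6 is cut to release a transcription factor, and Perk slows translation while raising the translation of Atf4, which turns on Ddit3 (CHOP) and Trib3. Acinar cells of the pancreas make digestive enzymes in large amounts and are known for an extensive ER, and loss of Xbp1 is known to impair them. Gene-level FPKM values do not separate spliced from unspliced Xbp1 mRNA and do not show the activity of a sensor.

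Many of these genes are known targets of Atf6 and Xbp1 through the ER stress element (ERSE), written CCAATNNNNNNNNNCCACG, or through the shorter ERSE-II, written ATTGGNCCACG. RefSeq promoter windows on the GRCm38.p6 build, from 250 bases before to 50 bases after each start site, were found for 38 of the 43 genes and searched on both strands. The ERSE letters occurred in 10 of the 38 and the ERSE-II letters in 2 others, while 0.181% of all 27025 genes with a window held either element. The sequences below are shown because they stand before genes whose levels differed widely between E13.5 and E15.5 and before genes whose levels did not. The capitals mark the parts of the element with fixed letters, and each sequence reads 5′ to 3′ in the direction of its gene.
Hspa5: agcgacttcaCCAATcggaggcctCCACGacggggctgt
Dnajc3: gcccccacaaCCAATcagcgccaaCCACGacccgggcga
Calr: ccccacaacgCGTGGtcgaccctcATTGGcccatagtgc
Canx: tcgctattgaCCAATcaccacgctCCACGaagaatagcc
Ero1lb: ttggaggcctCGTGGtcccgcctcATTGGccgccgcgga
Syvn1: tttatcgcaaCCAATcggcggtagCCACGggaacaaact
Derl3: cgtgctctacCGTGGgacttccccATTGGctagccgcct
Herpud1: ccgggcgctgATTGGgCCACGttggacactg
In Calr, Ero1lb and Derl3 the element lies on the opposite strand and reads CGTGG before ATTGG. The Hspa5 sequence lies at chr2:34772015-34772053 on the plus strand, and that of Dnajc3 at chr14:118937817-118937855 on the plus strand. Calr has its element at chr8:84847065-84847103 on the minus strand and Canx at chr11:50325790-50325828 on the minus strand. For Ero1lb the position is chr13:12565672-12565710, for Syvn1 chr19:6046522-6046560, for Derl3 chr10:75893232-75893270 and for Herpud1 chr8:94386367-94386397, all on the plus strand. Herpud1 is the 1 gene of the list whose window also held TTGCATCA, the letters of a C/EBP-ATF element bound by Atf4 and its partners, which stand in 1.03% of all genes with a window. A match of letters is a description of the sequence and does not show that a factor was bound there.

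The samples held between 1.37e+07 and 1.80e+07 estimated reads per library. Of the marker lists, the 11 acinar markers summed to 8.16, 6484, 115940 and 53790.4 FPKM from E11.5 to E18.5, and made up 22.2% of all FPKM at E15.5. The 10 endocrine markers summed to 387, 3773, 3014 and 30340.2 FPKM in the same order. At E11.5 the 7 erythroid markers summed to 9532 FPKM, the 6 neural markers to 1137 and the 8 mesenchymal markers to 227, against at most 322, 43.7 and 82.8 FPKM at the later stages. The 6 epithelial markers summed to 882 FPKM at E11.5 and to 3750 FPKM at E18.5. The E11.5 sum came mostly from Krt18, Epcam and Krt8, at 332, 294 and 197 FPKM, beside 527, 768 and 806 at E13.5. Sox9, Cdh1 and Pdx1 stood at 49.5, 6.28 and 2.93 FPKM at E11.5, beside 123, 64.7 and 79.0 at E13.5. The 4 endothelial markers summed to 0.514 FPKM or less in every stage. In RNA from whole samples, a change in the number of cells of a type and a change in RNA per cell cannot be told apart, and the part of any cell type in the results that follow was not tested.

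Of the 43 genes, 36 were lowest at E11.5, and the highest level fell at E15.5 in 27 genes and in 14 at E18.5, the last stage. Over all measured genes, 34.1% were lowest at E11.5, 26.6% highest at E15.5 and 27.3% highest at E18.5. The last of these is close to the 32.6% of the 43 genes that were highest at E18.5. With every stage set to the same total of FPKM, 25 of the 43 were lowest at E11.5 and 18 highest at E15.5. Over all measured genes 18.9% and 10.3% were then lowest at E11.5 and highest at E15.5. In that scaling 10 of the 43 were highest at E13.5 and 10 at E18.5, or 23.3% each. Over all measured genes these shares were 22.0% and 16.2%. The 43 genes summed to 3258, 4188, 7062 and 5779.9 FPKM from the first stage to the last. As a share of all deposited FPKM this was 1.06%, 1.24%, 1.35% and 1.25%, so the share moved much less than the summed level. Levels are given after each stage was divided by a factor from 9884 widely expressed genes (median of ratios), and differences were taken between log2(FPKM + 1) values, so that those of low genes are understated.

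Since each stage has 1 sample, a gene was called higher or lower by size alone, with a difference of 2-fold or more and at least 5 FPKM in the higher stage (the 2-fold rule). From E11.5 to E13.5, 8 of the 43 genes were higher and 1 was lower, against 5.77% of all measured genes higher and 5.73% lower. From E13.5 to E15.5, 15 were higher and 0 lower, against 3.64% and 1.48% of all measured genes. From E15.5 to E18.5, 1 was higher and 3 were lower, against 6.29% and 5.55%. Across E13.5 to E18.5, 14 were higher and 0 lower, against 5.34% and 3%. These comparisons share stages with each other and are not independent. Beside the E13.5 difference, all 11 acinar, 9 of 10 endocrine and 5 of 6 epithelial markers were higher than at E11.5 by the same rule, and 7 of 8 mesenchymal, all 7 erythroid and 5 of 6 neural markers were lower. Beside the E15.5 difference, all 11 acinar markers and 1 of the 3 measured leukocyte markers were higher than at E13.5. Of the 10 endocrine markers 3 were higher and 3 lower, and of the 6 epithelial markers 1 was higher and 1 lower. Among the 7 erythroid markers 2 were lower. Beside the E18.5 difference, 7 of the 11 acinar markers were lower than at E15.5 and 1 was higher. All 10 endocrine, 2 of 8 mesenchymal, 2 of 6 neural and 1 of 6 epithelial markers were also higher. In the same step 1 of 7 erythroid and 1 of the 3 measured leukocyte markers were lower. Their part in the counts was not tested. The median log2 difference of the 43 genes was 0.44, 0.82, -0.24 and 0.60 in that order, beside -0.03, 0.00, 0.04 and 0.06 over all measured genes.

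The size of the E15.5 difference depended on how the stages were scaled. With every stage set to the same total of FPKM, which counts the acinar enzyme mRNAs in full, the median of the 43 genes from E13.5 to E15.5 was 0.22 and that of all measured genes -0.41. The difference was then above 0 in 27 of the 43 genes, against 38 with the median-of-ratios factors. Over all 14841 measured genes it was above 0 in 3008 at the same total and in 7414 with the factors. At the same total 7 of the 43 genes were higher and 0 lower, beside 192 and 1380 of all measured genes. The 7 were Edem1, Edem2, Derl3, Herpud1, Sdf2l1, Ero1lb and Fkbp11. From E11.5 to E13.5 the same scaling gave 5 higher and 2 lower, beside 807 and 1209 of all measured genes. From E13.5 to E18.5 it gave 9 higher and 0 lower, beside 484 and 1193.

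**Figure D1:**
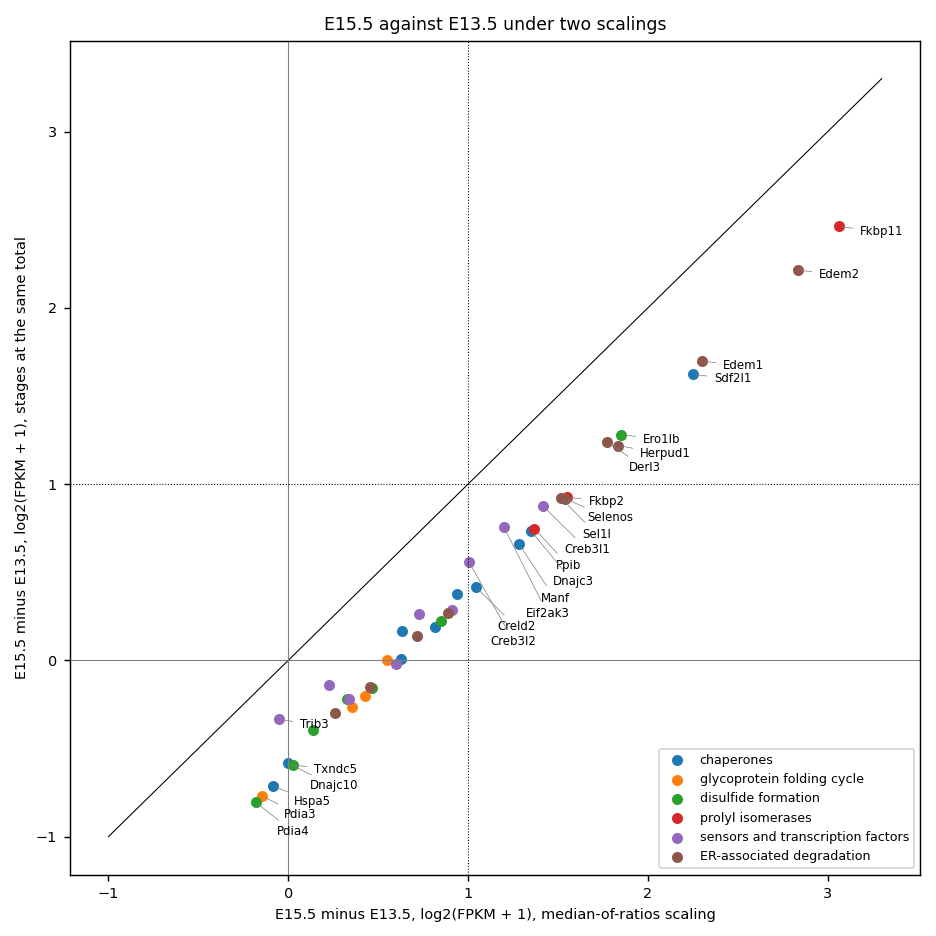
Difference between E15.5 and E13.5 for each of the 43 genes on the log2(FPKM + 1) scale, with the median-of-ratios factors on the x axis and with every stage at the same total on the y axis; colours give the role, dotted lines mark a 2-fold difference and the diagonal marks equal values. Every gene lies below the diagonal, and 7 genes stay past 2-fold on both axes.

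A test was possible for 22 of the 43 genes, those that could be taken apart in all 8 libraries; limma with Benjamini-Hochberg adjustment was fitted to 13065 genes. Of the 22, 16 rose and 3 fell from E11.5 to E13.5, where 31.3% of all tested genes rose and 36.6% fell. From E13.5 to E15.5, 17 rose and 0 fell, against 28.7% and 26.8% of all tested genes. From E15.5 to E18.5, 9 rose and 8 fell, against 37.4% and 30.7%, and 5 fell when library 1 of E15.5 was left out. Across E13.5 to E18.5, 17 rose and 1 fell, against 34.9% and 24.7%. With every library at the same total, 3 fell from E15.5 to E18.5, namely Canx, Edem1 and Sel1l, and 4 fell across E13.5 to E18.5. The same scaling gave 10 that rose and 7 that fell from E13.5 to E15.5. Of those 7, Canx, Derl1 and Txndc11 had risen under the median-of-ratios factors, and their direction therefore turned with the scaling. The shares of all tested genes given above belong to the median-of-ratios factors. At the same total these shares were not counted, so whether the counts of that scaling differ from all tested genes was not tested. Genes that could not be taken apart in every stage, such as Hspa5, Calr and Pdia3 in all stages and Sdf2l1 at E15.5 and E18.5, had no test.

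**Figure D2:**
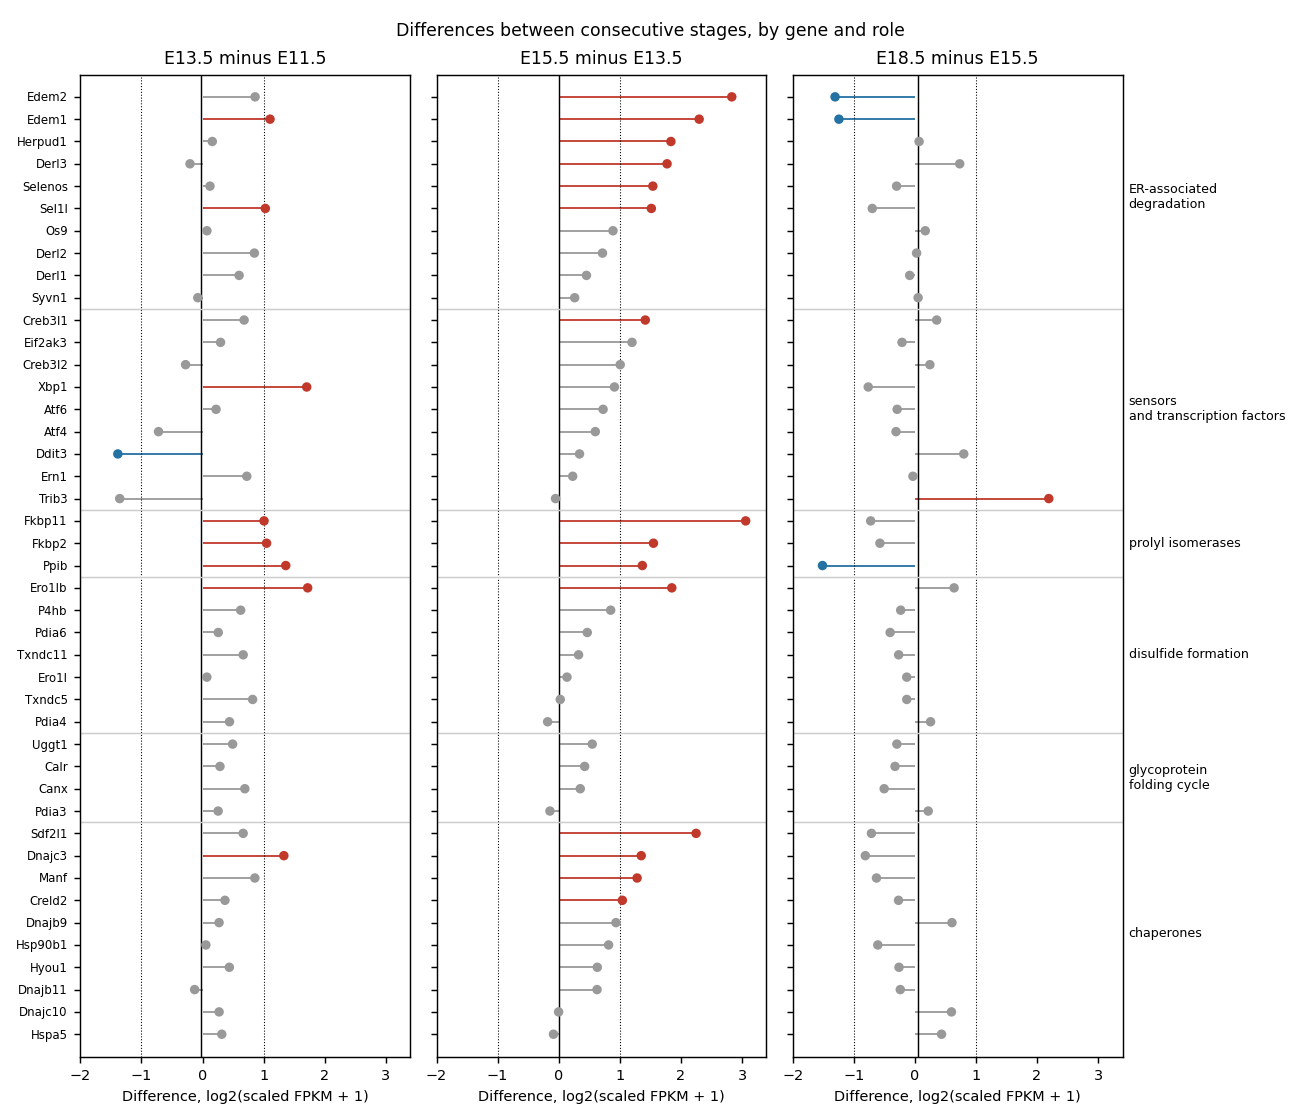
Difference between consecutive stages for each of the 43 genes, grouped by role, on the log2(scaled FPKM + 1) scale. Red points are higher and blue points lower by the 2-fold rule, grey points are neither, dotted lines mark a 2-fold difference and the solid line marks the median of all measured genes. In the middle panel 15 genes are red, 6 of them in ER-associated degradation.

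Among the 10 chaperones and co-chaperones, BiP itself stayed within 2-fold of its other stages while several of its partners were higher at E15.5. Hspa5, at chromosome 2, positions 34771970 to 34777547 on the plus strand, stood at 502, 624, 588 and 796 FPKM from E11.5 to E18.5. Its highest level was thus at E18.5, and its log2 difference from E13.5 to E15.5 was -0.09, or -0.71 with every stage at the same total. Sdf2l1, an ER-resident partner of the BiP system, stood at 88.7 ± 3.10, 141 ± 4.57, 675 and 412 FPKM (SD, n = 2 where given). It was 2.25 higher on the log2 scale at E15.5 than at E13.5 and at E15.5 stood above Hspa5.

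Dnajc3, the co-chaperone p58IPK, stood at 14.8 ± 0.239, 38.7 ± 0.333, 100.2 and 56.7 ± 0.520 FPKM (SD, n = 2 where given). Its log2 differences were 1.33 from E11.5 to E13.5 and 1.35 from there to E15.5, and at E18.5 it lay between its E13.5 and E15.5 levels. Manf, a secreted ER stress protein that binds BiP, went from 92.2 ± 3.83 (SD, n = 2) to 226 FPKM between E13.5 and E15.5, and Creld2, an ER stress protein with disulfide isomerase activity, from 141 to 292 FPKM. Under the same total, the differences of Dnajc3, Manf and Creld2 from E13.5 to E15.5 were 0.73, 0.66 and 0.42 and no longer 2-fold.

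Dnajb9, the J-protein ERdj4, kept increasing after E15.5. It stood at 4.53 ± 0.259, 5.67 ± 0.229, 11.8 ± 0.571 and 18.4 ± 0.148 FPKM (SD, n = 2) from E11.5 to E18.5, with no overlap between the libraries of any stages next to each other. By limma with Benjamini-Hochberg adjustment it rose by 0.94 (SE 0.0558, adjusted p = 4.38e-05) from E13.5 to E15.5 and by 0.59 (adjusted p = 0.000138) from E15.5 to E18.5. Dnajc10, the J-protein and disulfide reductase ERdj5, rose from E11.5 to E13.5 (0.28, adjusted p = 0.00208) and again from 13.3 ± 0.563 FPKM at E15.5 to 20.7 ± 1.16 at E18.5 (SD, n = 2; 0.58, adjusted p = 8.09e-05). Between E13.5 and E15.5 its libraries overlapped, but with every library at the same total it fell by 0.58 (adjusted p = 7.06e-05).

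Of the remaining chaperones, Hsp90b1 (GRP94, the Hsp90 of the ER) stood at 312, 324, 571 and 375 FPKM and was above its other stages at E15.5, without reaching 2-fold in any comparison. Its exons overlap other annotated genes over 15.7% of their length, so part of its reads could belong to them. Dnajb11 (ERdj3) was between 61.8 and 96.0 FPKM. Hyou1, the nucleotide exchange factor GRP170, was low at every stage, from 1.34 ± 0.145 to 3.91 ± 0.303 FPKM (SD, n = 2), and rose by 0.63 from E13.5 to E15.5 (limma, adjusted p = 0.000921), a call lost with every library at the same total (0.17, adjusted p = 0.134).

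**Figure D3:**
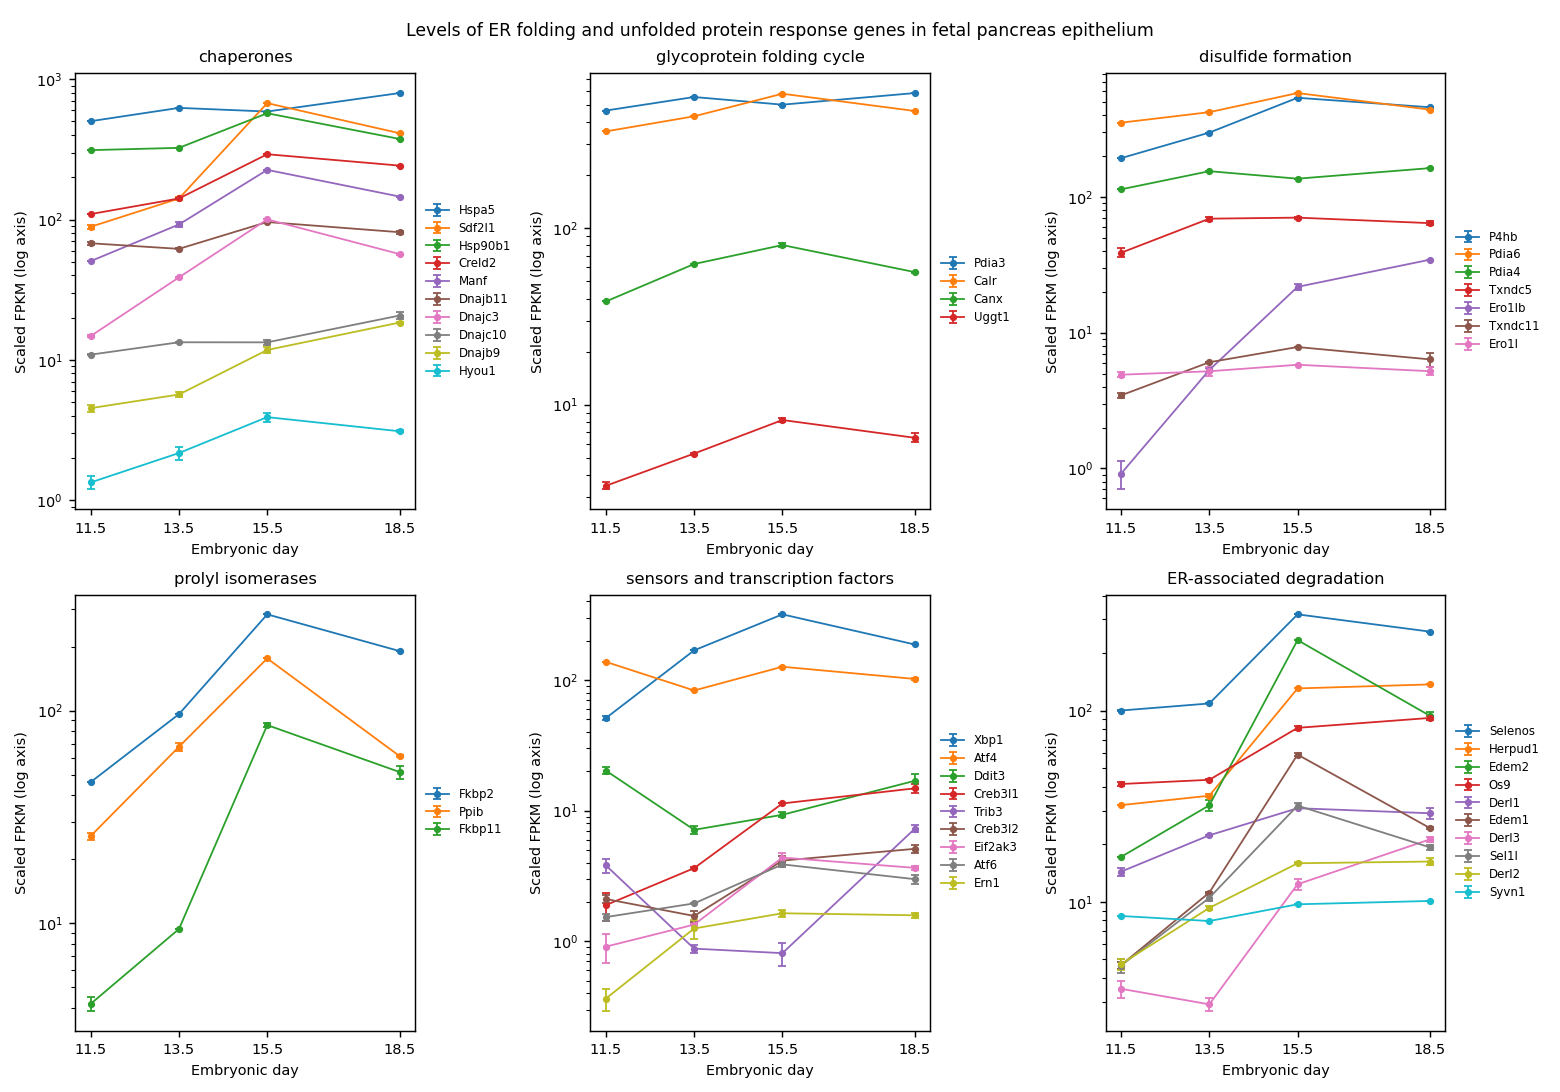
Level of each of the 43 genes at the 4 stages in scaled FPKM on a log axis, 1 panel per role; points are the stage averages and error bars the SD of the 2 libraries where the average could be taken apart. Hspa5 stays between 502 and 796 FPKM, whereas Edem2, Fkbp11 and Sdf2l1 have their highest value at E15.5.

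The glycoprotein folding cycle held 4 genes, and 0 of them were past the 2-fold rule in any comparison. Calr (calreticulin), a lectin chaperone, stood at 355, 432, 580.2 and 463 FPKM, and Pdia3 (ERp57), its disulfide isomerase partner, at 466, 556, 503 and 585 FPKM. The highest of these levels was at E15.5 for Calr and at E18.5 for Pdia3, whereas under the same total both were highest at E13.5. Canx (calnexin), the membrane-bound lectin chaperone, stood at 38.5 ± 0.00961, 62.8 ± 0.0990, 80.4 ± 2.24 and 56.5 ± 0.449 FPKM (SD, n = 2). It rose by 0.36 from E13.5 to E15.5 (limma, adjusted p = 0.000207) and fell by 0.52 from E15.5 to E18.5 (adjusted p = 2.03e-05), but with every library at the same total the first of these was -0.27 (adjusted p = 0.00036). Uggt1, the glucosyltransferase that returns unfolded glycoproteins to the cycle, was between 3.47 ± 0.161 and 8.19 ± 0.176 FPKM (SD, n = 2) and highest at E15.5. Its rise of 0.55 from E13.5 (limma, adjusted p = 0.000317) was not called with every library at the same total (0.0040, adjusted p = 0.962).

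Of the 7 genes of disulfide formation, only Ero1lb was past the 2-fold rule, in 3 of the 4 comparisons. Ero1lb, the Ero1 oxidase known for its high level in the pancreas, lies on chromosome 13 from 12565874 to 12611396 on the plus strand. It stood at 0.915 ± 0.215, 5.31 ± 0.145, 21.8 ± 1.10 and 34.5 ± 0.0476 FPKM in stage order (SD, n = 2). The libraries of each stage lay above those of the stage before. By limma it rose by 1.73 (SE 0.0791, adjusted p = 4.16e-06), 1.85 (adjusted p = 1.41e-05) and 0.62 (adjusted p = 0.000532) in the 3 steps.

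Ero1l, the widely expressed Ero1 oxidase, did not pass the test in any comparison. It stood at 4.90 ± 0.200, 5.19 ± 0.438, 5.80 ± 0.00117 and 5.20 ± 0.338 FPKM (SD, n = 2), and its adjusted p ranged from 0.0875 to 0.888 over the 4 comparisons. On the FPKM scale, which is per length, Ero1l was thus above Ero1lb in the first stage and below it in the last pair of stages. With every library at the same total, Ero1l fell by 0.39 from E13.5 to E15.5 (limma, adjusted p = 0.0019).

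The classical disulfide isomerases were abundant and differed by less than 2-fold from stage to stage. P4hb (PDI), the most studied of them, stood at 193, 298, 538 and 458 FPKM, Pdia6 at 352, 421, 583 and 439.9 FPKM, and Pdia4 (ERp72) at 114, 155, 136 and 163 FPKM. P4hb and Pdia6 had their highest level at E15.5, but under the same total the difference of Pdia6 from E13.5 to E15.5 was -0.16. Pdia4 was lower at E15.5 than at E13.5. Txndc5 (ERp46) rose from 38.8 ± 2.93 FPKM at E11.5 to 69.2 ± 2.50 at E13.5 (SD, n = 2; limma, 0.83, adjusted p = 2.53e-05), and its libraries at E13.5 and E15.5 overlapped. With every library at the same total it fell by 0.59 between these stages (limma, adjusted p = 0.000163). Other annotated genes overlap 11.9% of its exon bases. Txndc11, a thioredoxin-domain protein, was between 3.45 ± 0.172 and 7.84 ± 0.0502 FPKM (SD, n = 2).

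All 3 prolyl isomerases were higher at E13.5 than at E11.5 and higher again at E15.5. Fkbp11, a membrane-anchored isomerase known from secretory cells, lies on chromosome 15 from 98724366 to 98728198 on the minus strand. It stood at 4.16 ± 0.300, 9.37, 85.5 ± 1.74 and 51.4 ± 3.54 FPKM in stage order (SD, n = 2 where given). Its difference of 3.06 from E13.5 to E15.5 was the highest of the 43 genes under both scalings. Fkbp2 stood at 46.1, 96.3, 284 and 191 FPKM, and Ppib (cyclophilin B) at 25.7 ± 0.972, 67.6 ± 2.69, 176 and 61.1 ± 0.419 FPKM (SD, n = 2 where given). Ppib was lower at E18.5 than at E15.5, with a log2 difference of -1.51. Snx22 overlaps 25.0% of the exon bases of Ppib, so that the reads of these genes may have been mixed. Under the same total, Fkbp2 and Ppib were 0.93 and 0.75 higher at E15.5 than at E13.5, short of 2-fold.

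From E13.5 to E15.5, ER-associated degradation held the largest number of genes past the 2-fold rule, 6 of 10, against 3.64% of all measured genes. All 6 were higher, and the median log2 difference of the 10 was 1.53. By share the prolyl isomerases stood above this role, with 3 of 3 higher and a median of 1.55. With every stage at the same total, 4 of the 10 degradation genes were higher, beside 192 of the 14841 measured genes, and their median was 0.92. A further 20 genes of this route, described below, had a median of 0.04, or -0.54 at the same total. Among the 10, the E15.5 difference was widest in the mannosidase-like proteins Edem1 and Edem2, which mark misfolded glycoproteins for removal. Edem1, on chromosome 6 from 108828641 to 108859356 on the plus strand, stood at 4.66 ± 0.199, 11.2 ± 0.119, 58.9 ± 1.02 and 24.3 ± 0.174 FPKM (SD, n = 2). The libraries of no 2 neighbouring stages overlapped. By limma it rose by 1.12 (adjusted p = 1.39e-06) and 2.30 (SE 0.0392, adjusted p = 1.38e-06) and then fell by 1.26 (adjusted p = 1.98e-06).

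Edem2, on chromosome 2 from 155701677 to 155729475 on the minus strand, stood at 17.2 ± 0.0180, 32.0 ± 1.95, 234 and 94.0 ± 4.19 FPKM (SD, n = 2 where given). Its E15.5 level was 7.31 times that at E13.5, and from there to E18.5 its log2 difference was -1.31. Sel1l, the adaptor of the Hrd1 ubiquitin ligase, stood at 4.64 ± 0.393, 10.5 ± 0.388, 31.9 ± 0.835 and 19.3 ± 0.569 FPKM (SD, n = 2), and by limma rose by 1.04 and 1.52 and then fell by 0.72 (adjusted p = 1.02e-05, 1.08e-05 and 6.81e-05). Syvn1, the Hrd1 ligase itself, stood at 8.43, 7.93, 9.71 and 10.1 FPKM. The E15.5 level was 3.04 times the E13.5 level for Sel1l and 1.22 times for Syvn1, which could not be tested.

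At E18.5 Herpud1, Selenos and Os9 were within 2-fold of their E15.5 level. Herpud1, a scaffold of the Hrd1 complex, stood at 32.1 ± 0.0512, 35.9 ± 0.602, 131 and 137 FPKM (SD, n = 2 where given), close to level before E13.5 and after E15.5. Selenos, a selenoprotein that ties the complex to the p97 ATPase, stood at 100.2 ± 0.312 (SD, n = 2), 109, 319 and 259 FPKM. Os9, a lectin of the same complex, rose by 0.89 from 43.5 ± 0.251 to 81.3 ± 2.17 FPKM between E13.5 and E15.5 (SD, n = 2; limma, adjusted p = 1.48e-05).

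The 3 derlins are membrane proteins of the export channel. Derl3 stood at 3.51 ± 0.352, 2.91 ± 0.215, 12.4 ± 0.841 and 21.2 ± 0.652 FPKM (SD, n = 2), and its libraries did not overlap between neighbouring stages. By limma it rose by 1.78 (SE 0.0782, adjusted p = 1.57e-05) from E13.5 to E15.5 and by 0.71 (adjusted p = 0.000263) from E15.5 to E18.5. Derl2 went from 4.72 ± 0.312 at E11.5 to 15.9 ± 0.234 at E15.5 and Derl1 from 14.4 ± 0.674 to 30.9 ± 0.200 FPKM (SD, n = 2), and both rose in the first 2 steps. From E13.5 to E15.5 under the same total, Derl1 was at -0.15 (limma, adjusted p = 0.036) and Derl2 at 0.14 (adjusted p = 0.0531). Neither passed the test from E15.5 to E18.5.

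The sensors were low and the transcription factors spread over a wide range of levels. Ern1 (Ire1) was at 0.364 ± 0.0704 FPKM at E11.5 and between 1.25 ± 0.206 and 1.64 ± 0.102 FPKM afterwards (SD, n = 2). Eif2ak3 (Perk) stood at 0.910 ± 0.225, 1.34 ± 0.00636, 4.38 ± 0.385 and 3.65 ± 0.107 FPKM and Atf6 at 1.53 ± 0.0932, 1.95 ± 8.78e-05, 3.88 ± 0.199 and 2.99 ± 0.247 FPKM (SD, n = 2). From E13.5 to E15.5, limma called a rise for Eif2ak3 (1.20, adjusted p = 0.000124) and Atf6 (0.73, adjusted p = 0.000251) and not for Ern1 (0.23, adjusted p = 0.0615).

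Xbp1, on chromosome 11 from 5520659 to 5525893 on the plus strand, was the most abundant of the transcription factors from E13.5 on. It stood at 51.2 ± 1.63 (SD, n = 2), 169, 319 and 187 FPKM in stage order. The step past the 2-fold rule was the first, with a difference of 1.70, and the E15.5 level was 0.91 above E13.5 on the log2 scale, or 0.29 with every stage at the same total.

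Atf4, Ddit3 and Trib3, successive members of the Perk branch, ran the other way between E11.5 and E13.5. Atf4 stood at 138, 83.3 ± 0.0206, 127 and 102 ± 1.21 FPKM (SD, n = 2 where given). Ddit3, on chromosome 10 from 127290774 to 127296288 on the plus strand, stood at 20.3 ± 1.34, 7.14 ± 0.463, 9.30 ± 0.429 and 16.9 ± 2.15 FPKM (SD, n = 2). Trib3, a pseudokinase on chromosome 2 from 152337422 to 152344032 on the minus strand, stood at 3.81 ± 0.449, 0.878 ± 0.0582, 0.811 ± 0.165 and 7.27 ± 0.444 FPKM (SD, n = 2). Atf4 and Ddit3 had their highest level at E11.5 and Trib3 at E18.5. Ddit3 and Trib3 were both low in the middle stages, whereas Xbp1 was highest at E15.5.

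By limma, Ddit3 fell by 1.37 (SE 0.0938, adjusted p = 2.47e-05) and Trib3 by 1.34 (adjusted p = 3.37e-05) from E11.5 to E13.5. From E15.5 to E18.5 Ddit3 rose by 0.78 (adjusted p = 0.000421) and Trib3 by 2.18 (SE 0.0981, adjusted p = 6.38e-06). The Trib3 values at E13.5 and E15.5 rested on 67 and 41 reads over both libraries, and 10.9% of the exon bases of Ddit3 overlap other annotated genes. Beside the fall to E13.5, all 7 erythroid, 5 of 6 neural and 7 of 8 mesenchymal markers were lower by the 2-fold rule. In that step all 11 acinar, 9 of 10 endocrine and 5 of 6 epithelial markers were higher. Beside the E18.5 rise, all 10 endocrine, 2 of 6 neural, 2 of 8 mesenchymal and 1 of 6 epithelial markers were higher. Of the 11 acinar markers, 7 were then lower and 1 was higher. Their part in these results was not tested.

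Creb3l1 (OASIS) and Creb3l2, membrane-bound factors related to Atf6 that are known from secretory cells, were highest at E18.5. Creb3l1 stood at 1.89 ± 0.451, 3.63 ± 0.0757, 11.4 ± 0.000671 and 14.8 ± 1.12 FPKM (SD, n = 2) and rose by 1.42 from E13.5 to E15.5 (limma, adjusted p = 0.000103). Creb3l2 stood at 2.11 ± 0.136, 1.56 ± 0.147, 4.15 ± 0.314 and 5.10 ± 0.381 FPKM (SD, n = 2), fell by 0.27 to E13.5 (adjusted p = 0.0229) and rose by 1.01 to E15.5 (adjusted p = 0.00013).

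The 12 genes with an ERSE or ERSE-II in their window had a median of 62.3 FPKM at E13.5 and 115.5 at E15.5, against 12.3 and 64.6 FPKM over the 26 genes whose window held neither. The levels of both sets overlapped, since Derl3, Ero1lb and Syvn1 with the element were low and P4hb, Pdia3 and Sdf2l1 without it were high. The differences of the 12 from E13.5 to E15.5 spread from -0.09 for Hspa5 to 1.85 for Ero1lb, with a median of 0.72 and 5 of 12 genes higher by the 2-fold rule. Without the element the median was 0.87 and 8 of 26 genes were higher. Of all measured genes 3.64% were higher in this step. Edem1, Edem2, Sdf2l1 and Fkbp11, the genes with the widest differences at E15.5, all had a window and held neither element in it. The capitals of Hspa5, Calr, Canx and Syvn1 shown above thus stand before genes under 2-fold at E15.5, and those of Dnajc3, Ero1lb, Derl3 and Herpud1 before genes past it. Nothing follows from the absence of these letters in a window of this length about the factors themselves.

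**Figure D4:**
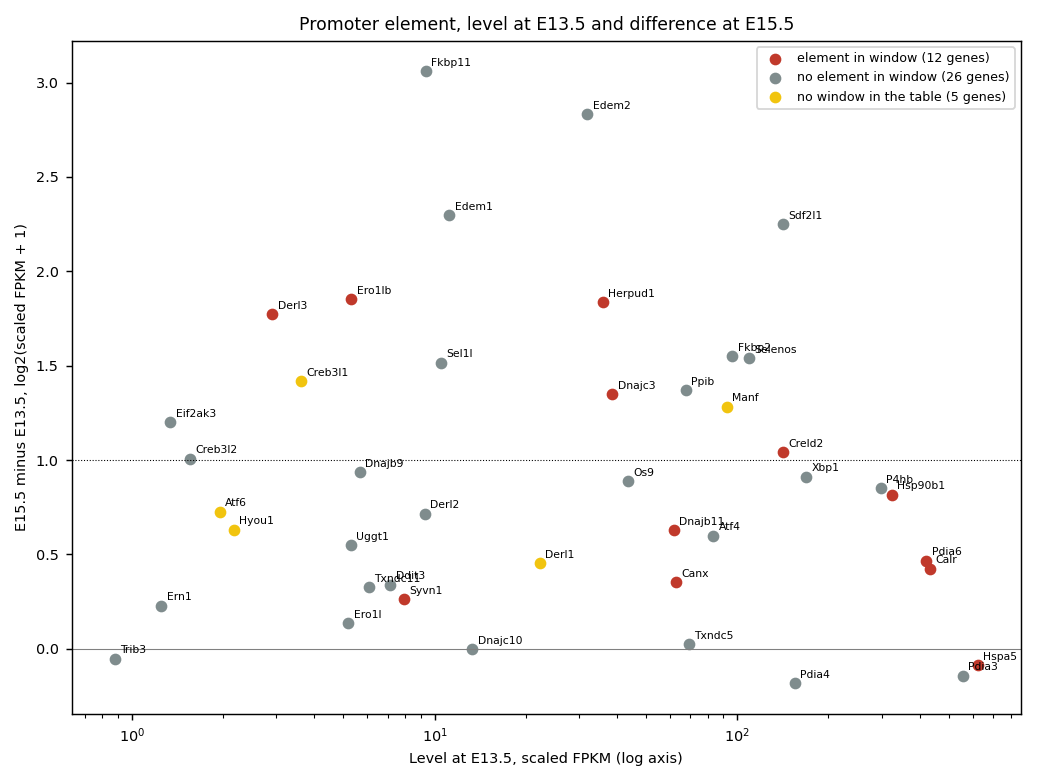
Level at E13.5 in scaled FPKM on a log axis (x) against the difference between E15.5 and E13.5 on the log2(scaled FPKM + 1) scale (y) for the 43 genes, coloured by whether the promoter window held an ERSE or ERSE-II. The dotted line marks a 2-fold difference; the 12 genes with an element lie on both sides of it, from Hspa5 at -0.09 to Ero1lb at 1.85.

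Further genes of the same pathways, 84 names in 3 lists of which 78 were measured, were examined in the same way. From E13.5 to E15.5, 12 of 78 were higher and 0 lower, against 3.64% and 1.48% of all measured genes. The median of the 78 was 0.18. With every stage at the same total, 4 were higher and 5 lower, beside 192 and 1380 of the 14841 measured genes. The median of the 78 was then -0.29, with 26 of them above 0. In the earlier step 11 were higher and 2 lower, against 5.77% and 5.73% of all measured genes. In the later step 3 were higher and 5 lower, against 6.29% and 5.55%, and across E13.5 to E18.5 9 and 1, against 5.34% and 3%. Of the 63 that limma could test, 29 rose and 14 fell from E13.5 to E15.5, against 28.7% and 26.8% of all tested genes.

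In the list of other stress sensing and integrated stress response genes, 6 of 25 were higher at E15.5 than at E13.5. Over all measured genes 3.64% were higher. Of the 25, 11 had their highest level at E15.5 and 10 at E18.5, against 26.6% and 27.3% of all measured genes. With every stage at the same total, 3 of the 25 were higher and 1 lower from E13.5 to E15.5, beside 192 and 1380 of the 14841 measured genes. The median of the 25 was then -0.19. Nupr1, a small stress-induced chromatin protein, stood at 0.427, 54.8, 763 and 187 FPKM, and Asns, asparagine synthetase and an Atf4 target, at 31.9, 91.4, 287 and 97.1 FPKM. Atf3, another target of Atf4, stood at 8.10, 16.6, 90.3 and 58.6 FPKM. All 3 had their highest level at E15.5. Of the folding enzymes, Erp27, a disulfide isomerase relative known from the pancreas, went from 6.52 FPKM at E13.5 to 148 at E15.5, and Mlec (malectin), which binds glucosylated sugars, from 28.2 to 79.8 FPKM. In the degradation list 2 of 20 genes were higher at E15.5, against 3.64% of all measured genes, and the median of the list was 0.04. The 2 were Edem3 at 1.99 and 6.14 FPKM and the lectin Erlec1 at 4.62 and 12 FPKM. With every stage at the same total, 0 of the 20 were higher and 1 was lower, with a median of -0.54.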

How the data were processed

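The 4 samples, 1 per stage, each have 1 file of RNA sequencing values. Per the submitters' processing notes, HISAT2 version 2.0.5 and the mm10 build were used. For the counting tool, annotation and strand setting, nothing is given in the sources used here. The authors deposited FPKM by Ensembl gene, which are stage averages per the file headers. Gene symbols, positions and exon lengths were read from GENCODE M21, where 54495 of 54532 gene IDs had a symbol. A second Ddit3 gene ID of 105 bases, listed at 0 in every stage, was not used.

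Stages were divided by median-of-ratios factors, and log2 differences used a pseudocount of 1 FPKM. A gene was called by size when it was at least 2-fold apart and at 5 FPKM or more in the higher stage. The named genes were the given list and, of the other lists, up to 4 genes per list and comparison past that rule with the largest difference. Krtcap2 and Snx22 were named outside it after their values or positions were seen. The members and lists were chosen with earlier results of these data known.

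Each stage average times exon length was split into whole reads of 2 libraries, where 1 pair of reads alone gave it within 1 last printed place with at most 0.05 chance pairs. This succeeded for 96.3% to 96.5% of genes tried. The estimated reads were 0.898 to 1.26 times the FPKM denominators, so these were not plain read totals. Libraries of the same stage were 1.24 to 1.39 times as far apart as counting error. The recovery rests on the values. The simulated data used to test it were drawn as 2 libraries per stage at the same denominators. That test therefore cannot show that 2 libraries were averaged in the real data. limma 3.58.1 (R 4.3.3; trended variance, Benjamini-Hochberg at 0.05) was fitted to the 13065 genes that split in every one of 8 libraries, and 1776 measured genes had no test. Alternatives were other scalings, a pseudocount of 0.1, no filter on low values, each library left out in turn, and the library number as a block. Promoter sequences came from RefSeq windows on GRCm38.p6, and genes were matched by symbol or synonym.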

Additional observations from a re-analysis of the deposited data

How the results depend on the processing

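With the stages at the same total, the 43 genes had a median log2 difference of 0.30 from E11.5 to E13.5, 0.22 from E13.5 to E15.5, -0.068 from E15.5 to E18.5 and 0.17 from E13.5 to E18.5. The counts past the 2-fold rule were then 5 higher and 2 lower, 7 higher, and, for E13.5 to E18.5, 9 higher. Over all 14841 measured genes they were 807 higher and 1209 lower, 192 and 1380, and, for E13.5 to E18.5, 484 and 1193. Trib3 became lower from E11.5 to E13.5 (-1.56). No longer 2-fold were Sel1l, Fkbp2 and Fkbp11 at E13.5 against E11.5, Creb3l1, Creld2, Dnajc3, Fkbp2, Manf, Ppib, Sel1l and Selenos at E15.5 against E13.5, and Creb3l2, Ddit3, Edem1, Os9 and Selenos at E18.5 against E13.5. No gene past the 2-fold rule changed direction. Among the genes limma tested, the same total gave 10 that rose and 7 that fell from E13.5 to E15.5, 3 that fell from E15.5 to E18.5 and 4 that fell from E13.5 to E18.5. The share over all tested genes was not counted for that scaling. Without a factor, the medians were 0.47 for E11.5 to E13.5, -0.33 for E15.5 to E18.5 and 0.51 for E13.5 to E18.5. A pseudocount of 0.1 gave medians of 0.51, 0.85, -0.26 and 0.62. Without a filter on low values 2 genes were lower from E11.5 to E13.5. With 1 library left out in turn, the genes that fell from E15.5 to E18.5 numbered 5 to 9, and 5 came from leaving out library 1 of E15.5. A stage with 1 library left was assumed to vary like the others. The labels carry no library numbers, and the deviations of libraries with the same number correlated between -0.05 and 0.04, so the block pairs nothing by design. With that block the number of genes that fell from E11.5 to E13.5 was 4 in place of 3. The cause of these differences was not tested, and 21 abundant or unsplit genes of the list had no test.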

Other observations

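Genes outside the list that carry an ERSE or ERSE-II in their RefSeq window were examined as a set, 37 names of which 34 were in the files and 17 were measured. From E13.5 to E15.5, 2 of the 17 were higher and 1 was lower by the 2-fold rule, and the median was -0.06. Over all measured genes 3.64% were higher and 1.48% lower in that step. Krtcap2, a subunit of the oligosaccharyltransferase that attaches sugars to proteins in the ER, stood at 20.0, 35.3, 171 and 57.3 FPKM from E11.5 to E18.5 and was highest at E15.5. From E15.5 to E18.5, 0 of the 17 were higher and 3 were lower, against 6.29% and 5.55% of all measured genes.

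Of the 78 measured genes in the 3 further lists, 3 were higher and 5 lower at E18.5 than at E15.5. Over all measured genes 6.29% were higher and 5.55% lower. The 3 higher were Wfs1, Selenom and Ficd, a count that does not exceed the share of all measured genes. Wfs1, an ER membrane protein of the insulin-producing cell, stood at 1.97, 2.77, 2.39 and 8.14 FPKM from E11.5 to E18.5, and Selenom, an ER selenoprotein, at 11.3, 20.9, 23.7 and 65.2 FPKM. Ficd, the enzyme that AMPylates BiP, stood at 2.50 FPKM at E15.5 and 6.14 FPKM at E18.5. Phgdh, the first enzyme of serine synthesis and an Atf4 target, was lower at E18.5, at 150.3 FPKM after 685 at E15.5.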
